A study of Mus musculus with 6 samples.

Results

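The core of the Hippo pathway was examined in satellite cells (SCs), the stem cells of skeletal muscle, through 10 genes. These were the kinase genes *Lats1* and *Lats2*, the coactivator genes *Yap1* and *Wwtr1* (which encodes TAZ), the transcription factor genes *Tead1*, *Tead2*, *Tead3* and *Tead4*, and the target genes *Ccn1* and *Ccn2*. Each was taken as the row of the deposited table that carries its gene name, which gave 10 of 55416 genes, with 1 row for each name. The study compared SCs of wild-type (WT) mice with SCs of mice lacking lactoferrin (*Ltf*-KO), an iron-binding glycoprotein, to look for the transcripts behind a difference in proliferation. The knockout was systemic, made with CRISPR-Cas9 in C57/BL6N zygotes by deleting part of *Ltf*, so the cells and the animal around them both lacked the gene. SCs were flow-sorted from hind leg muscle as cells negative for Sca1 and CD11b and positive for CD34 and α7-integrin, and were then grown for 4 days on Matrigel in medium with serum, chick embryo extract and basic fibroblast growth factor. There were 3 libraries of each genotype, with no other treatment. By the general methods of the study its mice were young adults unless stated otherwise. The labels give neither age nor sex for these libraries and do not say whether libraries of a genotype came from separate animals, so the p-values measure the spread between these libraries, which may be technical in part.

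The Hippo pathway is a kinase cascade that restrains growth. LATS1 and LATS2 phosphorylate YAP and TAZ, which keeps these coactivators in the cytoplasm and marks them for degradation. Unphosphorylated YAP and TAZ enter the nucleus, where they have no DNA contact of their own and act mainly through the 4 TEAD factors. In muscle, YAP is known for favouring the expansion of activated SCs over their differentiation, and TEAD4 for acting with the myogenic factors during differentiation. The transcripts measured here do not report phosphorylation or location of these proteins.

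Values are TPM, in which reads are divided by gene length and each library is scaled to a common total, so that levels can be set side by side between genes. The libraries summed to between 993650 and 994356 TPM, and the depth behind a value is unknown. *Ltf* was listed at 0.02 to 0.12 TPM in WT and at 0 to 0.03 TPM in *Ltf*-KO libraries and does not tell the genotypes apart. The cultures carried the markers of myoblasts, with *Pax7*, the transcription factor that defines SCs, at 36.6 to 43.3 TPM and *Myod1*, a myogenic determination factor, at 747.6 to 815.7 TPM. Markers of differentiation were present too, with *Myog* at 266.2 to 507.8 TPM. Among 5 macrophage markers *Ptprc*, *Adgre1* and *Csf1r* stayed under 1 TPM in all 6 libraries. The others were *Cd68*, at 3.12 to 3.98 TPM, and *Lyz2*, at 0.38 to 7.22 TPM with its highest value in WT replicate 1. In bulk RNA, fewer cells of a type and less RNA per cell cannot be told apart.

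The TEAD factors bind the hexamer GGAATG, so the promoters of the 10 genes were searched for it on both strands (CATTCC is its reverse complement). RefSeq promoters of build GRCm38.p6, which cover 250 bases before and 50 bases after a transcription start, matched 7 of the 10 genes by symbol, with 11 entries among them. *Tead1*, *Tead4* and *Ccn2* were not matched. The hexamer was in an entry of 5 of the 7 genes (*Yap1*, *Wwtr1*, *Tead3*, *Lats2* and *Ccn1*) and in 7 of the 11 entries, while it was in 14.7% of all 32851 promoter entries and in an entry of 16.6% of all genes. Entries of the same gene can share a copy, so the 7 entries are not independent. The 7 genes had 11 entries, while all 27025 genes had 32851, and more entries give more sequence to match. The percentages do not allow for this. A match of 6 letters is a description of the sequence and not a binding site. The 200 bases before the start of *Ccn1* are shown because *Ccn1* was the most abundant of the 10 genes, and 26 bases around the hexamer are shown for the others, with the hexamer in capitals. All are written 5′ to 3′ on the strand of the gene.
Ccn1, chr3:145649986-145650185, minus strand: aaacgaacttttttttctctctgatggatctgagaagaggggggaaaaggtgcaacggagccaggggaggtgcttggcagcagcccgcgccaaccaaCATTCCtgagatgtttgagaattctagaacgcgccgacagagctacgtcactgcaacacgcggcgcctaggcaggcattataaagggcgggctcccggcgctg
Yap1, chr9:8004722-8004747, minus strand: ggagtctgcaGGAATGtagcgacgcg
Wwtr1, chr3:57576031-57576056, minus strand: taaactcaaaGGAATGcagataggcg
Lats2, chr14:57746104-57746129, minus strand: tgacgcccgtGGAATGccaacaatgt
Tead3, chr17:28350708-28350733, minus strand: cggccgggctCATTCCgtaCATTCCg
The hexamer of *Ccn1* begins 103 bases before the start and that of *Yap1* begins 141 bases before it. In *Wwtr1* the same copy lies 136 or 170 bases before the start, as 2 starts are listed. In *Lats2* it begins at base 5 from a listed start that lies inside the gene, whose annotated 5′ end is at 57758388. *Tead3* holds 4 copies over its listed starts, of which the pair shown lies 9 bases apart from first letter to first letter. This pair precedes a listed start but lies inside the gene, whose annotated 5′ end is at 28350817.

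All 10 genes were expressed in every library, and all 10 passed the filter of a mean of at least 1 TPM. Their mean levels over the 6 libraries ran from 15.99 TPM for *Tead3* to 508.7 TPM for *Ccn1*, and *Ccn1* ranked 273rd of the 12956 genes tested. The order of the means was *Ccn1*, *Ccn2*, *Tead2*, *Wwtr1*, *Tead1*, *Yap1*, *Lats2*, *Lats1*, *Tead4* and *Tead3*. *Ccn1* stood above *Ccn2* by 4.07-fold, *Ccn2* above *Tead2* by 2.23-fold and *Lats2* above *Lats1* by 2.12-fold, each in 6 of 6 libraries and with no overlap of the ranges. The other neighbours in this order overlapped in their ranges. Of these pairs, *Tead2* was above *Wwtr1* and *Tead1* above *Yap1* within each of the 6 libraries, *Wwtr1* above *Tead1* and *Yap1* above *Lats2* in 5 of 6, and *Lats1* above *Tead4* and *Tead4* above *Tead3* in 4 of 6. The plot of levels by library shows these steps.

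**Figure D1:**
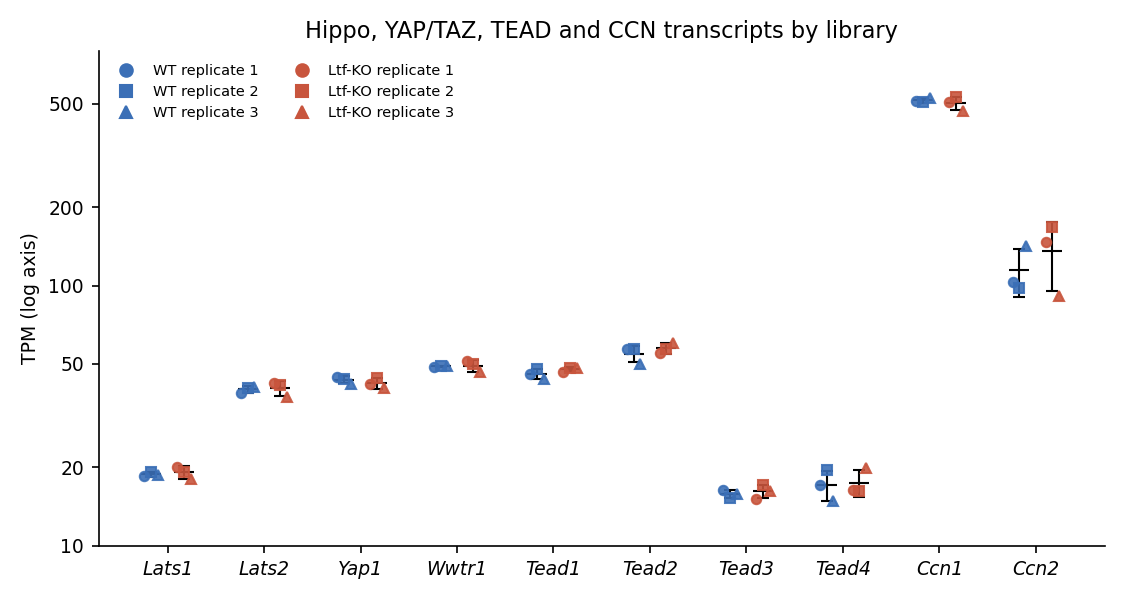
TPM (log axis) of the 10 genes in each of 3 WT (blue) and 3 *Ltf*-KO (red) libraries, with the symbol giving the replicate number and bars giving the mean and SD of 3 libraries. The genotypes overlap for every gene, and *Ccn2*, between 91.2 and 168.3 TPM, has the widest scatter of the 10.

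No member of the panel differed between the genotypes in the limma fit. At an unadjusted p under 0.05 there were 0 of 10 genes, where 3.78% of all 12956 genes tested passed (490 genes), 2.01% as higher and 1.78% as lower in *Ltf*-KO SCs. At an adjusted p under 0.05 there were 0 of 10 and 0 of all genes. The smallest unadjusted p in the panel was 0.265, for *Tead1* (limma adjusted p = 0.999). The WT and *Ltf*-KO libraries overlapped for all 10 genes, while 8.46% of all genes tested did not overlap. The log2 fold changes (*Ltf*-KO minus WT, on the log2(TPM + 1) scale) had a median of 0.023, against 0.011 over all genes, and 8 of the 10 were above 0, where 55.7% of all genes were. This count was 5 of 10 without *Ltf*-KO replicate 1 and also without *Ltf*-KO replicate 2. For 9 of the 10 genes the 95% intervals lay between 0.8-fold and 1.25-fold. The interval of *Ccn2* ran from 0.768-fold to 1.75-fold and left room for a larger difference. These intervals rest on the spread between these libraries, which may be technical in part, and do not bound the effect of the genotype across animals. The plot of differences between the genotypes gives each interval.

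**Figure D2:**
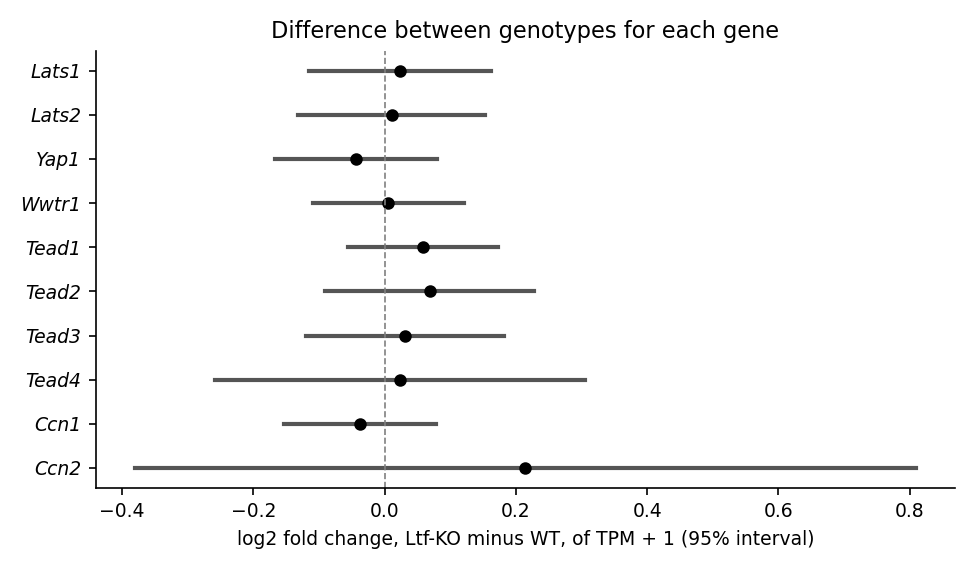
Log2 fold change of *Ltf*-KO minus WT on the log2(TPM + 1) scale (points) with its 95% interval from limma (lines), for 3 against 3 libraries. All 10 intervals cross 0, and that of *Ccn2* is the widest, from -0.38 to 0.81.

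*Lats1* and *Lats2* encode the kinases at the end of the cascade. *Lats1* (ENSMUSG00000040021, chromosome 10 from 7681214 to 7716460 in GENCODE M21 on GRCm38) was at 18.45, 19.21 and 18.72 TPM in WT replicates 1 to 3 and at 20.13, 19.26 and 18.01 TPM in *Ltf*-KO replicates 1 to 3. *Lats2* (ENSMUSG00000021959, chromosome 14 from 57689662 to 57758388) was at 38.6, 40.55 and 40.72 TPM in WT and at 42.13, 41.53 and 37.28 TPM in *Ltf*-KO libraries. For both genes *Ltf*-KO replicate 1 was the highest of the 6 libraries and *Ltf*-KO replicate 3 the lowest, so the *Ltf*-KO libraries enclosed the WT range. *Lats1* had a log2 fold change of 0.02 (standard error 0.058, 95% interval -0.12 to 0.16) and *Lats2* of 0.01 (standard error 0.059, 95% interval -0.13 to 0.15). Per length, *Lats2* supplied 67.4% to 68.5% of the LATS transcripts, a share that moved by about 1 percentage point over all 6 libraries. Both carry the protein kinase domain in the annotation of the table.

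*Yap1* and *Wwtr1* encode the paralogous coactivators YAP and TAZ, which share the WW domain that binds their partners. *Yap1* (ENSMUSG00000053110, chromosome 9 from 7931999 to 8004596 on GRCm38) was at 44.53, 43.85 and 41.95 TPM in WT and at 41.95, 44.27 and 40.22 TPM in *Ltf*-KO libraries. *Wwtr1* (ENSMUSG00000027803, chromosome 3 from 57455649 to 57575910) was at 48.56, 48.87 and 49.29 TPM in WT and at 51.14, 49.82 and 46.46 TPM in *Ltf*-KO libraries. The 3 WT libraries of *Wwtr1* lay within a coefficient of variation of 0.749%, and the *Ltf*-KO libraries, at 4.91%, reached above and below them. The mean of *Yap1* was 0.970-fold that of WT (log2 fold change -0.04, standard error 0.051, 95% interval -0.17 to 0.08) and that of *Wwtr1* 1.00-fold (log2 fold change 0.01, standard error 0.048, 95% interval -0.11 to 0.12). *Wwtr1* was above *Yap1* in each of the 6 libraries, by 1.09-fold to 1.22-fold. This ratio was 1.13 ± 0.044 (SD, n = 3) in WT and 1.17 ± 0.048 (SD, n = 3) in *Ltf*-KO SCs.

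The 4 TEAD genes encode the DNA-binding partners, each with the TEA domain and the YAP-binding domain in the annotation of the table. *Tead2* and *Tead1* were the major forms. *Tead2* (ENSMUSG00000030796, chromosome 7 from 45215753 to 45233644 on GRCm38) was at 57.11, 57.02 and 50.05 TPM in WT and at 55.04, 56.82 and 60.25 TPM in *Ltf*-KO libraries, with the lowest value in WT replicate 3 and the highest in *Ltf*-KO replicate 3. *Tead1* (ENSMUSG00000055320, chromosome 7 from 112679318 to 112906807) was at 45.73, 47.89 and 43.67 TPM in WT and at 46.69, 48.16 and 48.11 TPM in *Ltf*-KO libraries. WT replicate 2 fell inside the *Ltf*-KO range of *Tead1*, and the other WT libraries were below it. The log2 fold change was 0.07 (standard error 0.066) for *Tead2* and 0.06 (standard error 0.048) for *Tead1*.

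*Tead4* and *Tead3* were the minor forms. *Tead4* (ENSMUSG00000030353, chromosome 6 from 128224288 to 128300823 on GRCm38) was at 17.15, 19.46 and 14.91 TPM in WT and at 16.34, 16.19 and 19.81 TPM in *Ltf*-KO libraries. *Tead3* (ENSMUSG00000002249, chromosome 17 from 28331671 to 28350817) was at 16.3, 15.3 and 15.8 TPM in WT and at 15.15, 17.11 and 16.27 TPM in *Ltf*-KO libraries. The spread of *Tead4* was the larger, with coefficients of variation of 13.2% in WT and 11.7% in *Ltf*-KO SCs, against 3.16% and 6.08% for *Tead3*. The log2 fold change was 0.02 for *Tead4* (standard error 0.12, 95% interval -0.26 to 0.30) and 0.03 for *Tead3* (standard error 0.063, 95% interval -0.12 to 0.18).

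The make-up of the TEAD family was nearly fixed across libraries. How reads shared by near-identical stretches of these paralogs were counted is not given in the sources used here. Per length, *Tead2* supplied 40.2% to 41.9% of TEAD transcripts, *Tead1* 33.3% to 35.1%, *Tead4* 11.7% to 13.9% and *Tead3* 10.95% to 12.7%. These shares were 41.0% ± 0.851, 34.3% ± 0.772, 12.8% ± 0.999 and 11.9% ± 0.875 (SD, n = 3) in WT, and 41.4% ± 0.315, 34.4% ± 0.947, 12.6% ± 1.04 and 11.7% ± 0.612 (SD, n = 3) in *Ltf*-KO SCs. The summed TEAD level was 133.5 ± 8.004 TPM in the WT libraries, against 138.6 ± 5.62 TPM in the *Ltf*-KO libraries (SD, n = 3 each). Summed TEAD transcripts exceeded summed *Yap1* and *Wwtr1* transcripts in each library, by 1.36-fold in WT replicate 3 to 1.67-fold in *Ltf*-KO replicate 3. *Ltf*-KO replicate 3 thus held the highest TEAD sum, 144.4 TPM, with the lowest sum of *Yap1* and *Wwtr1*, 86.7 TPM.

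**Figure D3:**
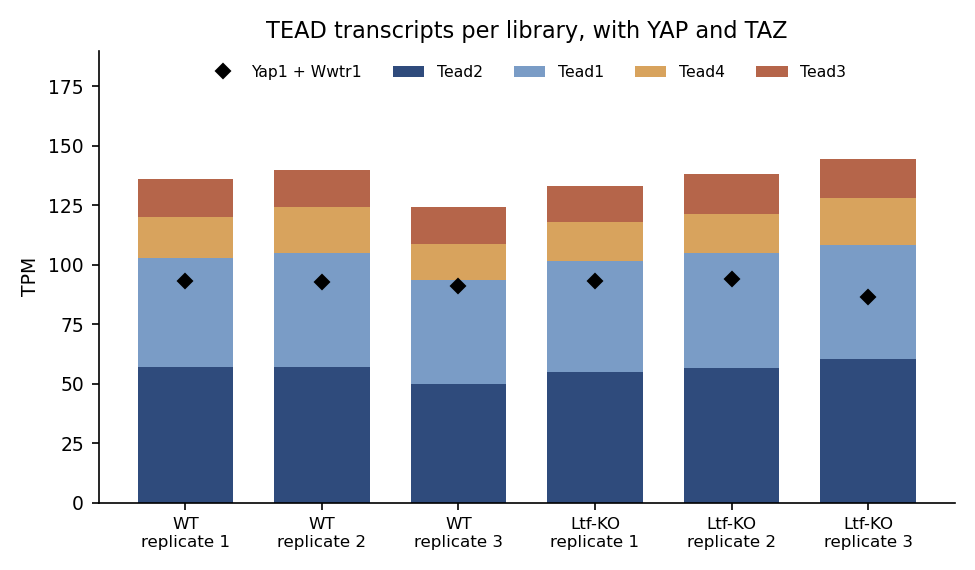
Stacked TPM of *Tead2*, *Tead1*, *Tead4* and *Tead3* (bars, from the bottom) and the summed TPM of *Yap1* and *Wwtr1* (diamonds) in each of the 6 libraries. The stacks reach 124.4 to 144.4 TPM with like proportions in each, and the diamonds lie lower, between 86.7 and 94.1 TPM.

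*Ccn1* and *Ccn2* encode secreted matricellular proteins and are widely used as readouts of YAP and TAZ activity. *Ccn1* (ENSMUSG00000028195, chromosome 3 from 145646976 to 145649981 on GRCm38) was at 512.2, 506.2 and 527.0 TPM in WT and at 507.2, 529.7 and 469.8 TPM in *Ltf*-KO libraries. *Ltf*-KO replicate 3 was the lowest, and the other libraries lay between 506.2 and 529.7 TPM. The log2 fold change of *Ccn1* was -0.04 (standard error 0.048, 95% interval -0.15 to 0.08). *Ccn2* (ENSMUSG00000019997, chromosome 10 from 24595442 to 24598683) was at 103.6, 97.7 and 142.4 TPM in WT and at 147.0, 168.3 and 91.2 TPM in *Ltf*-KO libraries. WT replicate 3 and *Ltf*-KO replicates 1 and 2 were high, and WT replicates 1 and 2 and *Ltf*-KO replicate 3 were low, so high and low values occurred in both genotypes. The means were 114.6 ± 24.3 TPM for WT and 135.5 ± 39.8 TPM for *Ltf*-KO (SD, n = 3 each). This difference, 0.21 on the log2 scale with a standard error of 0.25 (limma adjusted p = 0.999), was smaller than the spread between replicates. Without *Ltf*-KO replicate 3 the log2 fold change was 0.47 (unadjusted p = 0.0406, limma adjusted p = 0.984), and without *Ltf*-KO replicate 2 it was 0.04.

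The spread of *Ccn2* set it apart within the panel. Its SD within a genotype was 0.385 on the log2(TPM + 1) scale, larger than that of 98.9% of the 1704 genes whose mean level was within 2-fold of its own and whose median SD was 0.063. *Ccn1* had an SD of 0.065, larger than that of 64.8% of the 400 genes of like level, and *Tead4* an SD of 0.169, larger than that of 81.6% of 4650 such genes. For the other 7 genes this percentage was between 18.9% and 61.4%. *Ccn1* and *Ccn2* were both highest in *Ltf*-KO replicate 2 and both lowest in *Ltf*-KO replicate 3, but *Ccn2* varied over a wider range, and the ratio of *Ccn1* to *Ccn2* went from 3.15 in *Ltf*-KO replicate 2 to 5.18 in WT replicate 2.

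The genes most like *Ccn2* in profile were *Ptgs2*, *Postn* and *Grem1*, by the root-mean-square difference of centred log2(TPM + 1) values over 6 libraries (0.078, 0.092 and 0.098, where the median of the 8062 genes compared was 0.335). *Ptgs2* encodes the prostaglandin-forming enzyme COX-2 and was at 18.2, 16.9 and 23.3 TPM in WT and at 28.8, 28.7 and 16.5 TPM in *Ltf*-KO libraries. *Postn* encodes the matrix protein periostin and was at 27.2, 25.9 and 43.6 TPM in WT and at 41.7, 53.0 and 27.0 TPM in *Ltf*-KO libraries. *Grem1* encodes the BMP antagonist gremlin and was at 72.8, 71.5 and 94.6 TPM in WT and at 92.5, 102.0 and 64.8 TPM in *Ltf*-KO libraries. All 3 genes were high and low in the same libraries as *Ccn2*, which follows from how they were chosen. The genes nearest to *Ccn1* were *Tspan12* (0.012), *Zfp862-ps* (0.014) and *Mast4* (0.014), where the median was 0.090, each with its lowest value in *Ltf*-KO replicate 3. *Zfp862-ps* is named as a pseudogene, so its reads may be shared with a related gene.

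Markers of several other cell types were read beside *Ccn2*. The 5 endothelial markers summed to 7.36, 5.68 and 14.2 TPM in WT and to 11.5, 13.3 and 5.68 TPM in *Ltf*-KO libraries, again high in WT replicate 3 and *Ltf*-KO replicates 1 and 2, with *Tek* under 1 TPM in every library. *Kdr*, an endothelial growth factor receptor, differed from this sum and was lowest in *Ltf*-KO replicate 1, at 1.31 TPM. The 7 fibroblast markers summed to 102.8 to 108.2 TPM in WT and to 102.2 to 133.8 TPM in *Ltf*-KO libraries, most of it from *Col3a1*, and *Lum* and *Dpt* stayed under 1 TPM. *Dcn*, a proteoglycan of fibroblasts, was at 2.04, 2.89 and 5.24 TPM in WT and at 5.71, 6.83 and 2.82 TPM in *Ltf*-KO libraries, high and low in the same libraries as *Ccn2*. *Pdgfra* (1.00 to 1.90 TPM), *Col1a1* (3.73 to 9.32 TPM) and *Lum* were likewise highest in WT replicate 3 and *Ltf*-KO replicates 1 and 2. *Col3a1*, *Ly6a* and *Dpt* did not share this pattern. *Col3a1* was lowest in WT replicate 3, at 88.0 TPM, and *Ly6a*, which encodes Sca1, was highest in *Ltf*-KO replicate 3, at 3.21 TPM. The 7 smooth muscle and pericyte markers summed to 510.2 to 592.4 TPM in WT and to 584.3 to 696.0 TPM in *Ltf*-KO libraries. Nearly all of this came from *Acta2* and *Tagln*, while *Myh11* and *Rgs5* stayed under 1 TPM. *Cnn1*, under the filter, went the other way, with means of 1.40 TPM in WT and 0.51 TPM in *Ltf*-KO libraries. Its highest value, 2.89 TPM, was in WT replicate 1. Of the 7 markers 4 were tested, all with log2 fold changes above 0, and 2 had an unadjusted p under 0.05, against 3.78% of all genes. *Tagln*, an actin-binding protein, and *Pdgfrb*, a pericyte receptor, had larger means in *Ltf*-KO SCs with an unadjusted p of 0.028 and 0.017 and did not pass the adjusted threshold (limma adjusted p = 0.999 for both). The 4 Schwann cell markers summed to 11.7, 15.5 and 21.8 TPM in WT and to 16.6, 19.4 and 13.2 TPM in *Ltf*-KO libraries, so they too were high in WT replicate 3 and *Ltf*-KO replicates 1 and 2. The 5 macrophage markers summed to 4.46 to 11.4 TPM in WT and to 3.59 to 4.68 TPM in *Ltf*-KO libraries. The part of these cells in the *Ccn2* values was not tested.

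Markers of differentiation were read beside *Tead4* and *Ccn2*. The 8 differentiation markers summed to 2626, 3370 and 2478 TPM in WT and to 2864, 2478 and 3925 TPM in *Ltf*-KO libraries. WT replicate 2 and *Ltf*-KO replicate 3 were the highest libraries for this sum and for *Tead4*, and the lowest for *Ccn2*. The other libraries did not keep this order, as *Ltf*-KO replicate 1 was above WT replicate 1 for the sum and for *Ccn2* and below it for *Tead4*. *Myog*, the myogenic factor that marks entry into differentiation, was at 319.3, 410.3 and 293.4 TPM in WT and at 360.4, 266.2 and 507.8 TPM in *Ltf*-KO libraries. The 7 markers of SCs and myoblasts summed to 1878 to 1936 TPM in WT and to 1910 to 1963 TPM in *Ltf*-KO libraries, a narrower range. The part of differentiation in the *Tead4* and *Ccn2* values was not tested.

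**Figure D4:**
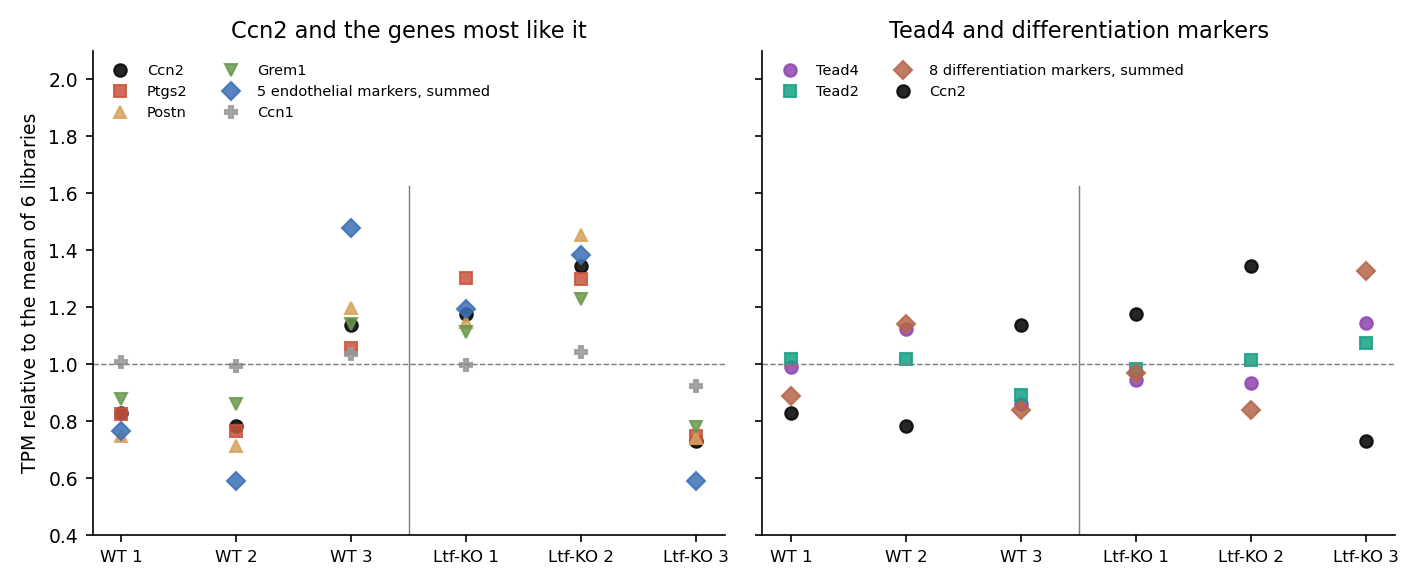
TPM in each library divided by the mean of the 6 libraries, with WT to the left and *Ltf*-KO to the right of the line. Left, *Ccn2*, its nearest genes and the endothelial sum lie above 1 in WT replicate 3 and *Ltf*-KO replicates 1 and 2, while *Ccn1* stays near 1, and right, beside *Tead2* (squares), *Tead4* and the differentiation sum are highest in WT replicate 2 and *Ltf*-KO replicate 3, where *Ccn2* is lowest.

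The genes around the panel were read in 4 lists, described by counts, with no test of a list as a whole. Upstream of YAP and TAZ, 24 of 25 kinases, scaffolds and regulators were tested, and 0 had an unadjusted p under 0.05, where 3.78% of all genes did. Their log2 fold changes were above 0 for 13 and below 0 for 11, with a median of 0.01. *Map4k4*, a kinase that can act on LATS, averaged 159.6 ± 2.90 TPM in the WT libraries against 158.1 ± 5.16 TPM in the *Ltf*-KO libraries (SD, n = 3 each). *Csnk1d*, a casein kinase that phosphorylates YAP on the way to its degradation, averaged 82.3 ± 7.57 TPM and 78.4 ± 1.15 TPM in turn (SD, n = 3 each). *Fat4*, an atypical cadherin named after its values were seen, had a mean of 0.998 TPM and stayed just under the filter. The libraries did not overlap for 2 of the 24 genes, 8.33% where the background was 8.46%. These were *Amot*, encoding the YAP-binding angiomotin, and *Ptpn14*, a phosphatase that holds YAP in the cytoplasm, both named after their values were seen.

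Of the 12 TEAD cofactors and 14-3-3 genes, whose products bind phosphorylated YAP and TAZ, 11 were tested and 0 had an unadjusted p under 0.05, against 3.78% of all genes, with 5 above and 6 below 0 and a median of -0.0015. *Ywhae* and *Ywhaz* were the most abundant 14-3-3 genes and averaged 959.0 ± 19.6 and 396.3 ± 7.03 TPM in the WT libraries, against 947.8 ± 31.6 and 407.6 ± 12.8 TPM in the *Ltf*-KO libraries (SD, n = 3 each). *Vgll1*, named after its values were seen, was listed at 0 in all 6 libraries. *Vgll2*, a muscle-enriched TEAD cofactor named after its values were seen, averaged 38.0 ± 4.47 TPM in the WT libraries against 35.2 ± 3.02 TPM in the *Ltf*-KO libraries (SD, n = 3 each).

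All 19 further targets of YAP and TAZ were tested, and 0 had an unadjusted p under 0.05, against 3.78% of all genes. Their log2 fold changes were above 0 for 13 genes and below 0 for 6, where 55.7% of all genes were above 0, with a median of 0.05 against 0.01 over all genes. *Ankrd1*, a stretch-responsive muscle protein, was the most abundant and averaged 1119 ± 25.7 TPM in the WT libraries against 1086 ± 72.5 TPM in the *Ltf*-KO libraries (SD, n = 3 each), a log2 fold change of -0.05 with a standard error of 0.052. *Myof*, a membrane repair protein of myoblasts, averaged 280.8 ± 8.22 TPM and 284.7 ± 24.6 TPM in turn (SD, n = 3 each). *Myof*, and *F3*, *Crim1* and *Nt5e*, named after their values were seen, were highest in the same libraries as *Ccn2*. The rest of the 19 were not. *F3* was at 5.16, 4.54 and 6.97 TPM in WT and at 7.47, 9.61 and 4.16 TPM in *Ltf*-KO libraries. *Amotl2*, an angiomotin-like inhibitor of YAP named after its values were seen, was the only one of the 19 whose libraries did not overlap, at 77.7, 80.8 and 78.7 TPM in WT and at 83.8, 86.2 and 82.6 TPM in *Ltf*-KO libraries (log2 fold change 0.09, unadjusted p = 0.0506, limma adjusted p = 0.999). That is 5.26% of the list, under the background of 8.46%.

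Among the CCN genes, *Ccn1* supplied 69.7% to 75.9% of the transcripts per length and *Ccn2* 14.6% to 22.1%. *Ccn4*, a target of Wnt signaling, came next and averaged 60.9 ± 2.13 TPM in the WT libraries against 61.1 ± 0.847 TPM in the *Ltf*-KO libraries (SD, n = 3 each). *Ccn3* was near the filter at 0.88, 1.04 and 1.23 TPM in WT and at 1.46, 1.29 and 1.48 TPM in *Ltf*-KO libraries (unadjusted p = 0.160), and *Ccn5* and *Ccn6*, named after their values were seen, were under it.

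The table's own annotation of the KEGG Hippo signaling pathway, read after the other values were seen, held 154 genes, including 9 of the 10 panel genes but not *Ccn1*. Of these, 112 were tested and 2 had an unadjusted p under 0.05, 1 in each direction, against 3.78% of all genes. *Bmp4*, a BMP ligand listed in this pathway, was at 8.87, 3.66 and 11.1 TPM in WT and at 1.58, 1.53 and 3.31 TPM in *Ltf*-KO libraries (unadjusted p = 0.00897, limma adjusted p = 0.999). *Dvl2*, a Wnt transducer, was at 17.7, 17.3 and 19.0 TPM in WT and at 20.8, 21.1 and 18.9 TPM in *Ltf*-KO libraries (unadjusted p = 0.0451, limma adjusted p = 0.999). Neither passed the adjusted threshold. *Bmp4* was lower in every *Ltf*-KO library than in every WT library, whereas *Ltf*-KO replicate 3 lay within the WT range of *Dvl2*. The libraries did not overlap for 5 of the 112 genes, *Bmp4* among them, which is 4.46% against 8.46% of all genes tested.

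**Figure D5:**
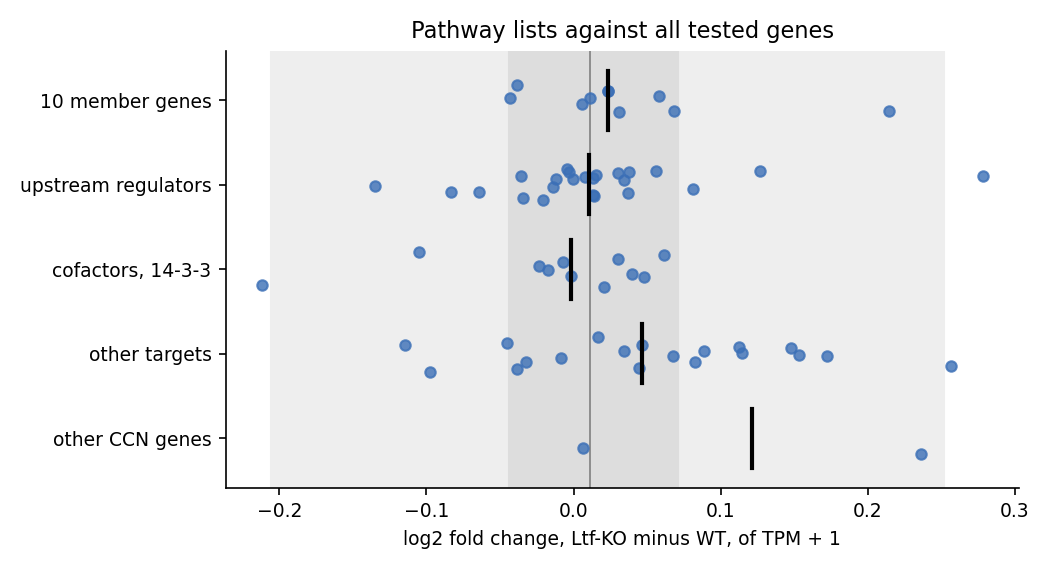
Log2 fold change of *Ltf*-KO minus WT on the log2(TPM + 1) scale for each tested gene of the 10-gene panel and of the 4 surrounding lists (points, spread vertically at random), with list medians as black bars. The bands hold the middle 50% (dark) and 90% (light) of all 12956 genes tested, from -0.04 to 0.07 and from -0.21 to 0.25, and most points lie inside them.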

How the data were processed

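RNA was sequenced from 6 libraries of cultured SCs, 3 WT and 3 *Ltf*-KO. The authors deposited TPM values, which are read counts divided by gene length and scaled to about the same total in every library. The unit was taken from the values, because the sources used here say only that data were normalized by the sequencing provider's protocol. GRCm39 is the build in the submitters' processing notes, and the aligner, counting tool and annotation release are not given in the sources used here. The number of reads behind a TPM value is unknown. Genotypes and replicate numbers come from the sample labels.

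Values were analysed as log2(TPM + 1), a pseudocount of 1, for the 12956 of 55416 genes averaging 1 TPM or more. The genotypes were compared with limma 3.58.1 in R 4.3.3 (lmFit, eBayes, variance trend, two-sided), with Benjamini-Hochberg adjustment over all genes tested and a threshold of 0.05. Python 3.11.15 was used for summaries. The fit was tested on simulated data with changes larger than any in the panel, which does not show whether smaller differences would be found. The genes, lists and tests were chosen with earlier results of these data known. The genes named are the 10 of the panel, *Ltf*, the markers, the list genes with an unadjusted p under 0.05 and the 2 with the highest TPM in each pathway list, and the 3 genes nearest in profile to *Ccn1* and to *Ccn2*. Other genes are marked as chosen after their values were seen. Alternatives were a pseudocount of 0.1, no filter, a mean of at least 10 TPM, the replicate number as a block, quantile normalization, median-of-ratios scaling, and each library left out in turn.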

Additional observations from a re-analysis of the deposited data

How the results depend on the processing

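The members' log2 fold changes were computed under 12 alternatives, and 106 of the 120 values kept their direction and their side of the unadjusted threshold. Of the others, 13 changed sign, none of them past the unadjusted threshold, and 1 passed an unadjusted p of 0.05 (*Ccn2* without *Ltf*-KO replicate 3, 0.47, limma adjusted p = 0.984). *Wwtr1* was -0.0046 with median-of-ratios scaling and -0.0041 with quantile normalization, and *Lats2* was -0.0088 with quantile normalization. With one library left out, the log2 fold changes ranged from -0.023 to 0.045 for *Wwtr1*, -0.0081 to 0.074 for *Tead3*, -0.069 to 0.113 for *Tead4*, -0.012 to 0.064 for *Lats1*, -0.021 to 0.065 for *Lats2*, -0.077 to 0.0090 for *Ccn1* and 0.036 to 0.474 for *Ccn2*. The cause was not tested. The count of panel genes at an unadjusted p under 0.05 was 0, and 0 to 1 when single libraries were left out. For the further YAP and TAZ targets it was 0, or 1 without the filter or after quantile normalization (*Amotl2* in both), and 0 to 2 when single libraries were left out. Over all genes it was 490, with 890 when no filter was set (more genes tested), 281 when the mean had to reach 10 TPM (fewer genes tested), and 456 to 611 when single libraries were left out. Genes lower in *Ltf*-KO made up 46.9% of the 490, but 60.0% with quantile normalization and 55.8% with median-of-ratios scaling. At an adjusted p under 0.05 limma called 0 genes, and 0 to 6 when single libraries were left out. Both genotypes have replicate numbers 1 to 3, but same-numbered libraries did not deviate together (correlations across genes of -0.041, -0.058 and -0.088). The labels do not say whether same-numbered libraries were prepared together, and a correlation over all genes cannot settle it. With the replicate block, 380 genes and 0 of the 10 panel genes had an unadjusted p under 0.05. TPM keeps no depth, so counting error could not be separated from the spread between libraries.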
